A study of Mus musculus with 8 samples.

Results

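The LIM homeobox genes encode transcription factors that join a DNA-binding homeodomain to a pair of zinc-binding LIM domains. Here H2AK119ub was described at the 8 Lhx and 2 Lmx genes of the mouse, which are 10 of 21887 protein-coding genes in the RefSeq table. For each gene the members of the description were all H2AK119ub peaks that overlapped its RefSeq span with 20 kb on either side by at least 1 bp. That window is called the gene window below. It took in 17 control peaks and 16 Eed cKO peaks.

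The peaks came from chromatin immunoprecipitation and sequencing (ChIP-seq) of basal epidermal progenitors, sorted as EpCAM-positive, Sca1-positive and α6-integrin-high cells from back skin of newborn mice at postnatal day 0. The control group (genotype given as Control) had 2 H2AK119ub libraries and 1 input. The Eed cKO group (genotype given as Eed-/-) likewise had 2 H2AK119ub libraries and 1 input. The allele, the promoter that drove the deletion, the sex and the number of mice per library are not stated in the labels. Each genotype had 1 deposited peak list with positions and no score, so there was no replicate error and no test of the 2 genotypes. Read depth behind either list was unknown, and a narrower or absent peak can reflect less mark, fewer reads or another call threshold, which cannot be told apart. The control list held 4621 peaks with a median width of 4.33 kb, and the Eed cKO list held 2541 with a median of 5.17 kb. Peak positions do not measure expression, so the cell label could be checked only for where the mark was called. The spans of Krt5, Krt14, Trp63, Itga6, Itgb4 and Col17a1, which mark basal keratinocytes, were free of peaks in both lists. Of the markers of other skin cells, the spans of the Merkel cell genes Atoh1 and Krt8 and of Vim, a fibroblast gene, were touched in both lists, Krt10 and Pdgfra in control alone, and Krt1 in Eed cKO alone. The other genes of these lists, Krt20 (Merkel), Col1a1 (fibroblast), Ivl (suprabasal), 3 melanocyte and 3 leukocyte genes, were not touched in either list.

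H2AK119ub is histone H2A with 1 ubiquitin attached, placed by Polycomb repressive complex 1. Eed is a core subunit of Polycomb repressive complex 2, which methylates histone H3 on lysine 27, and that methyl mark can recruit some forms of the first complex. Other forms are recruited to CpG-rich DNA without it. LIM homeobox genes are classic Polycomb targets in cells that do not use them. They fall into 5 pairs of close paralogs, namely Lhx1 with Lhx5, Lhx2 with Lhx9, Lhx3 with Lhx4, Lhx6 with Lhx8, and Lmx1a with Lmx1b. The family is best known for specifying neurons, the pituitary, the kidney, the gonads and the limb. In skin, Lhx2 is known as a factor of hair follicle stem cells.

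Transcript starts came from the RefSeq promoter table of GRCm38.p6, the assembly also called mm10, which held 13 starts of 9 of the genes (not Lhx5). Each promoter window runs from 250 bases before a start to 50 after it. The 6 windows printed here are those at which the lists differed (Lmx1a, the first start of Lhx2, the first of Lhx3 and the second of Lhx6), together with the paralog Lmx1b and the second start of Lhx2, which were covered in both lists. Starts are numbered from the most upstream. Capitals mark each CpG dinucleotide, the letters CG on the printed strand, which read the same on the other strand.
Lmx1a start (chr1:167689308-167689607, plus strand): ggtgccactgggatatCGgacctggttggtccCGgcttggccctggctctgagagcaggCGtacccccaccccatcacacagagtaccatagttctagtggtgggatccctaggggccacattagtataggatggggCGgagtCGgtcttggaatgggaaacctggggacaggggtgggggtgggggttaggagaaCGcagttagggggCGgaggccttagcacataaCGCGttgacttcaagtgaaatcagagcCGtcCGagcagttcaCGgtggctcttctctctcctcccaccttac
Lmx1b start (chr2:33641049-33641348, minus strand): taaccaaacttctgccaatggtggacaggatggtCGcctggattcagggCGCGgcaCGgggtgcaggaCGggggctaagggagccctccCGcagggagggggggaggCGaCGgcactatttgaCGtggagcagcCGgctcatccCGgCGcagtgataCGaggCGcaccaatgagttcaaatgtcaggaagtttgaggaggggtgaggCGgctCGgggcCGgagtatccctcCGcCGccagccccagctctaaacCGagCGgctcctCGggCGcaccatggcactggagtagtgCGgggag
Lhx2 first start (chr2:38339031-38339330, plus strand): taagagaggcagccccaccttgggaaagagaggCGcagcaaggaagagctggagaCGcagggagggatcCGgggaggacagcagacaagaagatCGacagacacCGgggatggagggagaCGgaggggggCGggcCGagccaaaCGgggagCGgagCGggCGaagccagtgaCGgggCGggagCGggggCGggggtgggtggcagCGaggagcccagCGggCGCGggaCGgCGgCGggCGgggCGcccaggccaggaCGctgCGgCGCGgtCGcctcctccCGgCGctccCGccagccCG
Lhx2 second start (chr2:38351058-38351357, plus strand): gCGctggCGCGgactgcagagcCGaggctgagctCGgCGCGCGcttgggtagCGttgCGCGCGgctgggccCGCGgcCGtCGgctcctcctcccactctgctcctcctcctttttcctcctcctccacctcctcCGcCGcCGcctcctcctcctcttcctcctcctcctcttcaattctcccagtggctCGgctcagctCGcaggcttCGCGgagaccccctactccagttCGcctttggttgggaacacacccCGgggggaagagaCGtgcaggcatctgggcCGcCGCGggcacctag
Lhx3 first start (chr2:26208200-26208499, minus strand): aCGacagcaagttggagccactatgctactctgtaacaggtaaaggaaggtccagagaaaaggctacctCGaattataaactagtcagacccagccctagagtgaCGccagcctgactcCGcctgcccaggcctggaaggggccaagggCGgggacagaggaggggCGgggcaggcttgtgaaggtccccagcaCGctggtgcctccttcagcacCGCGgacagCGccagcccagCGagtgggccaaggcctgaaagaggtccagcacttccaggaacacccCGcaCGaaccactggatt
Lhx6 second start (chr2:36104484-36104783, minus strand): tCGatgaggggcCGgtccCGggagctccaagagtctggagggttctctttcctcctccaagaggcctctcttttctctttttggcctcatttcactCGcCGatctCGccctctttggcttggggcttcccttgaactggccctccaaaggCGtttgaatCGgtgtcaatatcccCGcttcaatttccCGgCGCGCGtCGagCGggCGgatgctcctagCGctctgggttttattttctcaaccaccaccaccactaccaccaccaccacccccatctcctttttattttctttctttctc
The Lmx1a window held 12 CpGs and lay under a control peak alone, and the Lmx1b window held 24 and was covered in full in both lists. At Lhx2 the first start had 34 CpGs, the most of the 13 windows, and none of its 300 bases were covered in Eed cKO. The second start of Lhx2, with 29 CpGs, was covered in full in both. At Lhx3 the order was the other way round, since the first start (13 CpGs) was covered in Eed cKO alone. The second start of Lhx6 (17 CpGs) was covered in full in control and over 27 of 300 bases in Eed cKO.

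H2AK119ub was called in every one of the 10 gene windows in control and in 9 in Eed cKO, all but Lmx1a. Over all protein-coding genes, 21.2% had a control peak in the same kind of window and 14.3% an Eed cKO peak. Of the control-marked genes genome-wide, 55.1% also had an Eed cKO peak. The windows were widely covered as well as marked. Each of the 10 genes had at least 10 kb of control cover, the number of window bases under peaks, against 5.53% of all genes. Among genes with that much control cover, 80.2% also had an Eed cKO peak, a share near the 9 of 10 seen here. Median control cover was 24.3 kb at the 10 genes and 5.70 kb over all 4635 control-marked genes.

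**Figure D1:**
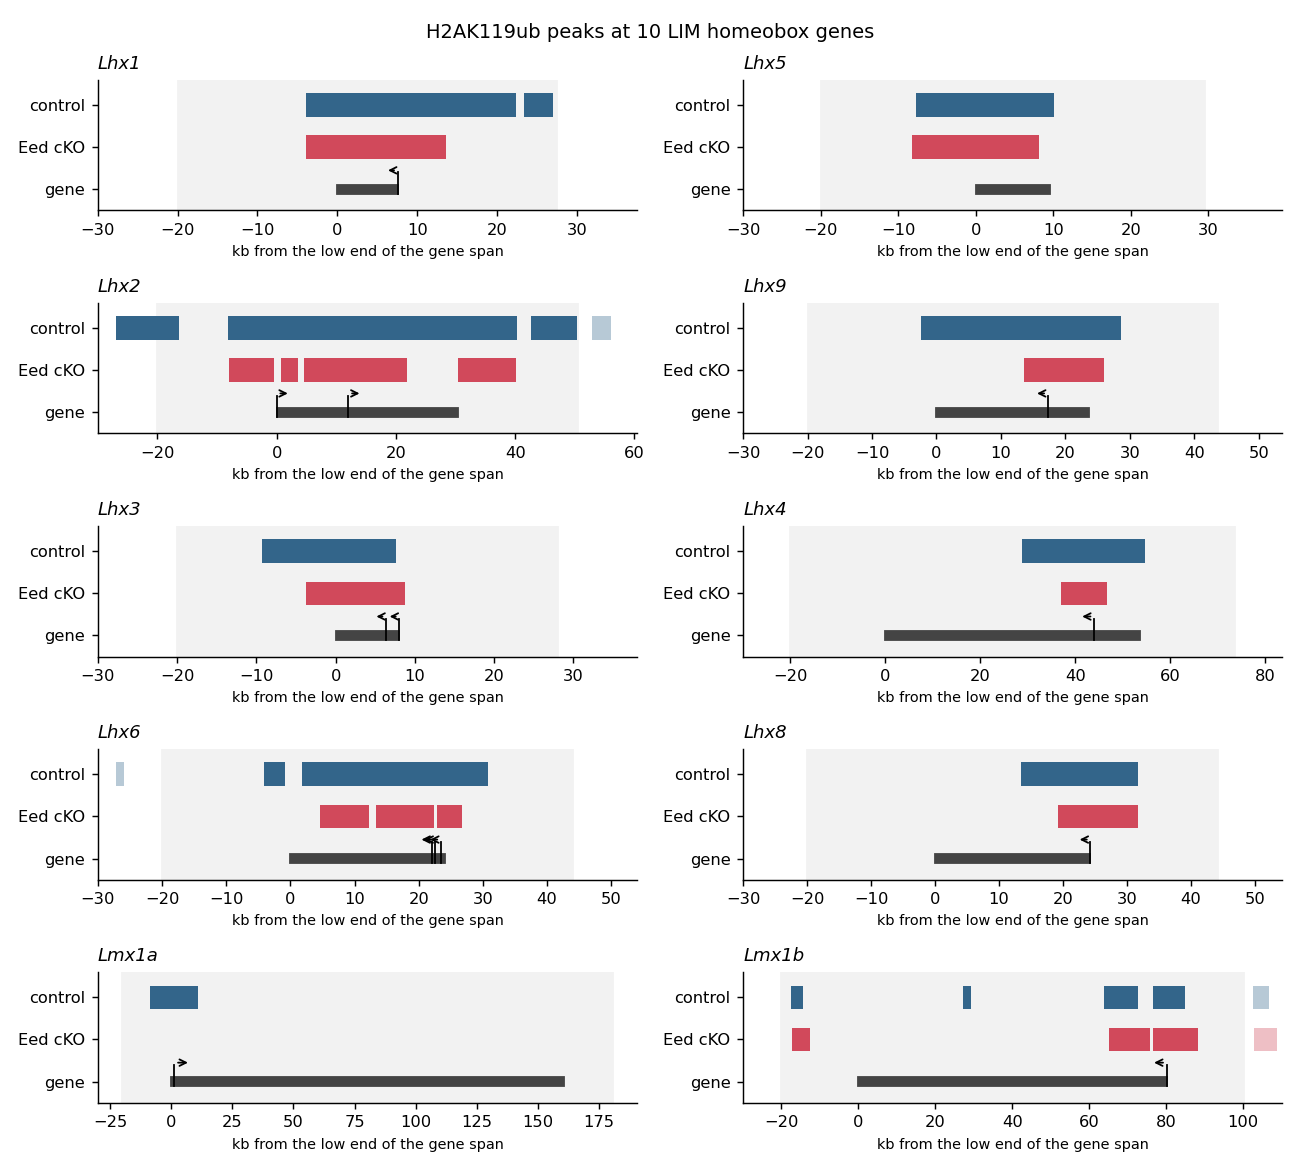
H2AK119ub peaks of the control list (blue) and the Eed cKO list (red) at the 10 genes, in kb from the low-coordinate end of each gene span (dark bar), with RefSeq starts as arrows and the gene window shaded; paler peaks lie outside the window. A control peak lies over part of every gene, and Lmx1a alone has no Eed cKO peak.

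Peaks at these genes were wide for their lists in control. The 17 control peaks ran from 2.04 to 48.4 kb with a median of 17.0 kb, and 9 of them were above 12.0 kb, the 90th percentile of the list. The 16 Eed cKO peaks ran from 2.78 to 17.6 kb with a median of 10.2 kb, and 6 were above the 90th percentile of their list, 12.4 kb. The order of the medians depended on the window, since with 50 kb on either side the control median was 8.74 kb and that of Eed cKO 9.73 kb. The widest peak of each gene had a median of 22.8 kb over 10 genes in control and 12.5 kb over 9 genes in Eed cKO. All 16 Eed cKO peaks overlapped a control peak, against 70.1% of the whole Eed cKO list. Of the 17 control peaks, 11 overlapped an Eed cKO peak, against 37.9% of the whole control list. The 6 that did not were the Lmx1a peak and satellites at Lhx1, Lhx2, Lhx6 and Lmx1b, which were between 2.04 and 10.6 kb wide. The whole-list shares were not matched for control peak width, whose median was 17.0 kb here and 4.33 kb in the whole list. Of the 16 Eed cKO peaks, 4 lay in a single control peak at Lhx2 and 3 in a single one at Lhx6.

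Summed over the 10 windows, control peaks covered 274 kb and Eed cKO peaks 166 kb, or 60.5% as much. Of the control cover, 56.9% was also covered in Eed cKO. Of the Eed cKO cover, 94.1% lay within control peaks. Over all control-marked genes the first share was 43.0% and the second 72.6%. Among genes with at least 10 kb of control cover they were 48.1% and 82.8%. Per gene, the median share of control cover also covered in Eed cKO was 63.2% at the LIM homeobox genes, 11.4% over all control-marked genes and 51.3% among those with at least 10 kb. Eed cKO cover was lower than control cover at 9 of the 10 genes, and 75.3% of control-marked genes had lower cover. It was at least 2-fold lower at 3 genes, Lhx9, Lhx4 and Lmx1a, where 54.5% of control-marked genes and 42.9% of those with 10 kb had such a difference. It was higher at Lmx1b alone, against 24.6% and 18.4% in the same sets.

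**Figure D2:**
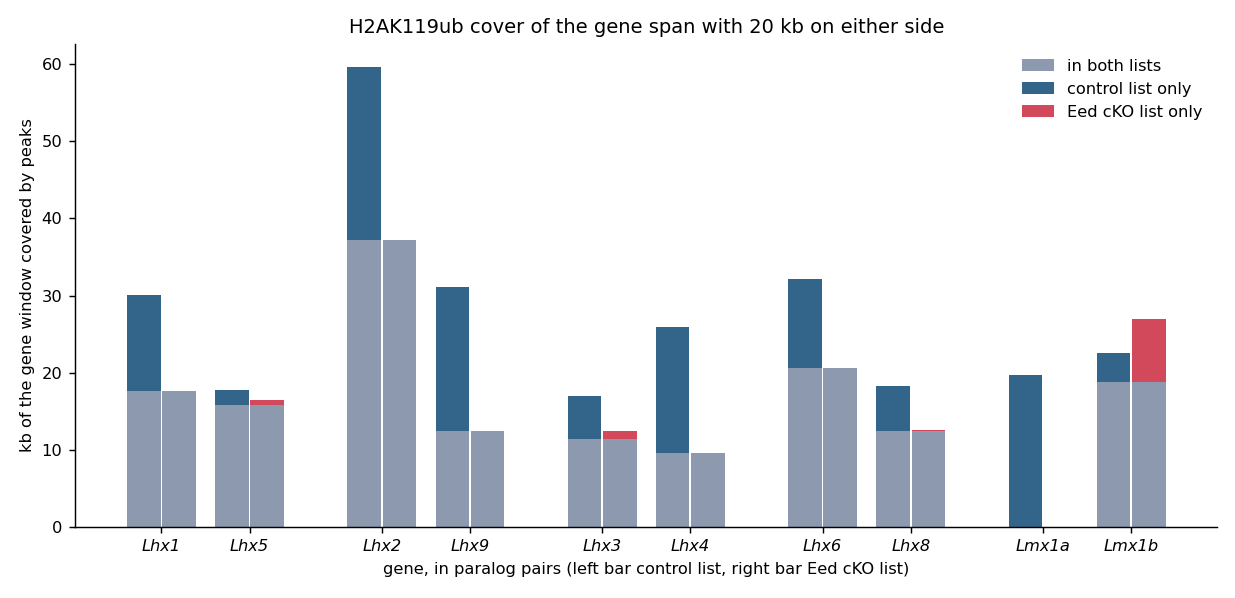
Kilobases of each gene window covered by peaks, with the control list as the left bar and the Eed cKO list as the right bar of each gene, split into bases in both lists (grey), in control only (blue) and in Eed cKO only (red). Lhx2 has the most cover in both lists (59.7 and 37.2 kb), Lmx1a has no Eed cKO bar, and Eed cKO cover above control is seen at Lmx1b alone.

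In control the order of cover was Lhx2 (59.7 kb), Lhx6 (32.2 kb), Lhx9 (31.1 kb), Lhx1 (30.0 kb), Lhx4 (26.0 kb), Lmx1b (22.6 kb), Lmx1a (19.6 kb), Lhx8 (18.3 kb), Lhx5 (17.8 kb) and Lhx3 (17.0 kb). In Eed cKO it was Lhx2 (37.2 kb), Lmx1b (26.9 kb), Lhx6 (20.6 kb), Lhx1 (17.6 kb), Lhx5 (16.4 kb), Lhx8 (12.5 kb), Lhx3 (12.5 kb), Lhx9 (12.4 kb), Lhx4 (9.60 kb) and Lmx1a (0 kb). Lhx2 led both lists, while Lmx1b stood sixth in control and second in Eed cKO. Without replicate lists, it is unknown which neighbours in either order differ. Cover counts all bases of windows of unequal length, so a long gene can collect more. As a share of the window, control cover ran from 9.79% at Lmx1a, the longest gene at 160.5 kb, to 84.7% at Lhx2.

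**Figure D3:**
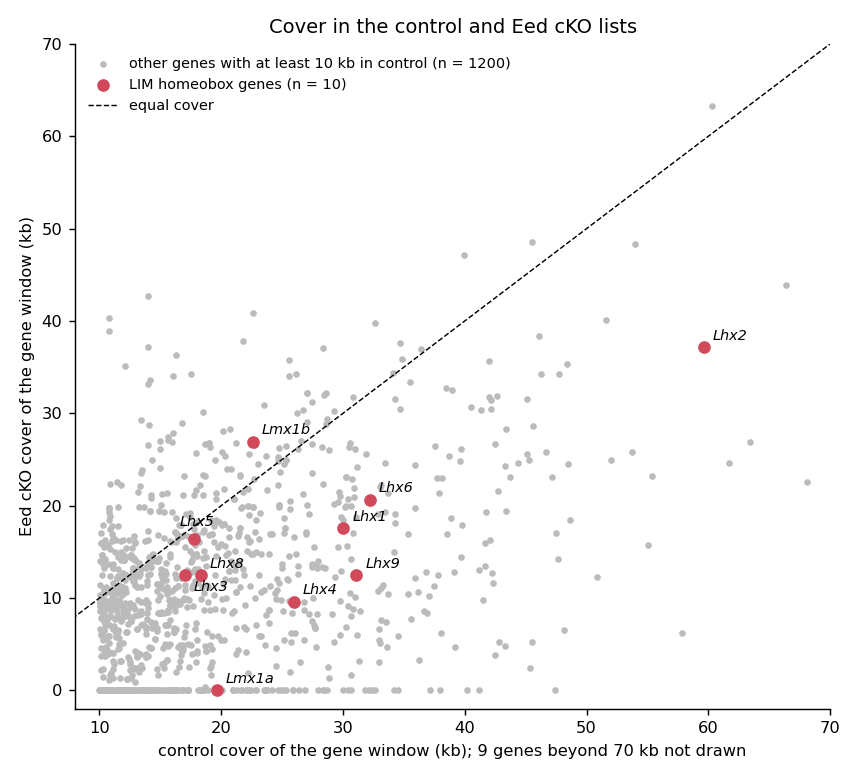
Control cover (x axis, kb) against Eed cKO cover (y axis, kb) of the gene window for the 10 LIM homeobox genes (red) and the 1200 other genes with at least 10 kb of control cover (grey), of which 9 lie beyond the axis limit of 70 kb and are not drawn, with the dashed line at equal cover. Of the 10 genes, Lmx1b lies above the line and the other 9 below it, with Lmx1a at 0 in Eed cKO.

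Lhx1 and Lhx5, the pair of Lim1 type, act in head and forebrain patterning, and Lhx1 also in the kidney. Lhx1 (chr11:84517975-84525534) lay wholly within a 26.4 kb control peak that ran from 14.9 kb upstream of its start to 11.5 kb downstream, past the end of the gene. A second control peak of 3.63 kb lay farther upstream. In Eed cKO a single 17.6 kb peak covered the gene. Its downstream edge was 4 bp from that of the control peak, but its upstream edge reached only 6.09 kb from the start. The 12.4 kb of control cover not found in Eed cKO therefore lay upstream of Lhx1, on the side that holds the lncRNA gene Lhx1os. ChIP-seq peaks carry no strand, so a peak over the start cannot be assigned to 1 of these 2 genes.

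Lhx5 (chr5:120431886-120441457) differed least between the lists among the genes with less cover in Eed cKO. Its control peak was 17.8 kb wide and its Eed cKO peak 16.4 kb. Both covered the same stretch except for 1.97 kb at the high-coordinate end, in control alone, and 0.625 kb at the low end, in Eed cKO alone. Of the control cover, 88.9% was also covered in Eed cKO, against 58.6% at Lhx1. The pair thus differed by 12.3 kb in control cover (Lhx1 above Lhx5) and by 1.19 kb in Eed cKO. With a window of 10 kb the control difference was 3.74 kb. With the gene spans alone both differences turned, and Lhx1 minus Lhx5 was -2.01 kb in control and -0.596 kb for Eed cKO. Each gene span was wholly covered in control, and that of Lhx5 is the longer.

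Lhx2 and Lhx9, related to the apterous gene of flies, act in the eye, forebrain and limb, and Lhx9 also in the gonad. Lhx2 (chr2:38339271-38369737) stood 14th of all protein-coding genes in control cover and 21st in Eed cKO cover. Its central control peak was the 17th widest of the list. It was matched by 4 Eed cKO peaks of 7.56, 2.78, 17.1 and 9.73 kb. The outermost Eed cKO edges lay 10 and 186 bp from those of the control peak, so the outer limits of the domain nearly coincided in the 2 lists. Inside it, 3 stretches were bare in Eed cKO. The first, 1.27 kb long, lay over the first start, the second was 1.12 kb long, and the third, 8.62 kb long, lay over the 3′ part of the gene almost to its end. A 10.6 kb control peak upstream, which reached past the window, and a 7.61 kb one downstream had no Eed cKO peak.

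Lhx9 (chr1:138825186-138848839) lay wholly within a 31.1 kb control peak. Its single Eed cKO peak was 12.4 kb wide, from 8.77 kb upstream of the listed start to 3.68 kb downstream, and lay inside the control peak. Control cover without Eed cKO cover was 16.0 kb on the 3′ side and 2.64 kb on the 5′ side. Of the control cover 40.0% was also covered in Eed cKO, against 62.4% at Lhx2. Lhx2 was above Lhx9 by 28.6 kb of control cover and 24.8 kb of Eed cKO cover. The control difference was 17.3 kb with a window of 10 kb. With the gene spans alone the differences were 6.81 and 9.90 kb, with Lhx2 still above. The Lhx9 control peak also reached the neighbouring protein-coding gene 2310009B15Rik, while the Eed cKO peak did not.

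Lhx3 and Lhx4 act in the pituitary and in motor neurons. At Lhx3 (chr2:26200212-26208249) the control peak was 17.0 kb and the Eed cKO peak 12.5 kb wide. The Eed cKO peak lacked 5.56 kb on the side beyond the 3′ end of the gene. It reached 1.02 kb farther on the 5′ side, which brought the first start of Lhx3 under the Eed cKO peak and left it 0.361 kb outside the control peak. At Lhx4 (chr1:155698031-155751726) a control peak of 26.0 kb held an Eed cKO peak of 9.60 kb from 2.64 kb upstream of the listed start to 6.96 kb downstream. That peak sat near the middle of the control peak, which ran on for 8.05 kb on the upstream side and 8.33 kb on the other. The listed start lies inside the gene span, and the 5′ end of the span was covered in control alone. Lhx4 had 37.0% of its control cover also covered in Eed cKO and Lhx3 67.3%. Control cover was 8.97 kb higher at Lhx4, and Eed cKO cover was 2.86 kb higher at Lhx3. The latter turned with the gene spans alone, where Lhx3 minus Lhx4 was -1.56 kb for Eed cKO and -17.3 kb for control.

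Lhx6 and Lhx8 act in interneurons and cholinergic neurons of the ventral forebrain and in tooth development, and Lhx8 also in oocytes. At Lhx6 (chr2:36081950-36105992) a 29.0 kb control peak covered 92.4% of the gene together with its 5′ flank. It held 3 Eed cKO peaks of 7.60, 9.12 and 3.93 kb, separated by bare stretches of 1.08 and 0.392 kb, the shorter of which lay over the second start. Control cover also ran on for 4.11 kb upstream and 2.79 kb at the 3′ end of the gene. A 3.19 kb control peak past the 3′ end, shared with Morn5, had no Eed cKO peak. At Lhx8 (chr3:154306288-154330560) control and Eed cKO peaks of 18.3 and 12.5 kb ended 55 bp apart upstream of the gene. The Eed cKO peak lacked 5.87 kb inside the gene. The shares of control cover also covered in Eed cKO were close, 64.1% at Lhx6 and 68.0% at Lhx8. Lhx6 was above Lhx8 in both lists, by 13.9 kb of control cover and 8.15 kb of Eed cKO cover. With the gene spans alone the latter was 12.9 kb.

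Lmx1a and Lmx1b act in midbrain dopamine neurons, and Lmx1b also patterns the dorsal limb and the kidney glomerulus. In Eed cKO cover and in the share of control cover also covered there, this pair differed most of the 5, whereas its control cover differed least. Both cover rankings depended on the window. With 10 kb, Lhx2 minus Lhx9 in Eed cKO was 24.8 kb and Lmx1a minus Lmx1b -22.4 kb. With the gene spans alone, Lhx1 minus Lhx5 in control was -2.01 kb and Lmx1a minus Lmx1b -3.95 kb. Lmx1a (chr1:167688230-167848741) had a single 19.6 kb control peak from 10.2 kb upstream of its listed start to 9.46 kb downstream. No Eed cKO peak lay in its window, and the nearest was 3224 kb from the gene. Control cover with no Eed cKO cover was larger at Lhx2 alone among the 10 genes, where it came to 22.5 kb.

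Lmx1b (chr2:33560965-33641208) had 4 control peaks of 3.1, 2.04, 8.92 and 8.55 kb and 3 Eed cKO peaks of 4.57, 10.7 and 11.6 kb. The control peak of 2.04 kb, inside the gene, had no counterpart. Each of the other 3 was matched by an Eed cKO peak that reached farther on its high-coordinate side, by 1.75, 3.17 and 3.19 kb. At the last of them, which covers the start, the Eed cKO peak extended 8.07 kb upstream, against 4.88 kb for the control peak, and the edges inside the gene were 100 bp apart. Eed cKO cover exceeded control cover by a ratio of 1.19, with 8.12 kb found in Eed cKO alone. That was 8.12 of the 9.82 kb of such cover at all 10 genes. With the gene span alone Lmx1b had 14.7 kb of control and 14.4 kb of Eed cKO cover, so the excess was seen only with the flanks. Lmx1b exceeded Lmx1a by 26.9 kb in Eed cKO, and by 14.4 kb with the gene spans alone. In control it did so by 2.98 kb, a difference that turned with a window of 10 kb and with the control list cut to its widest peaks, as many as the Eed cKO list holds. Lmx1a minus Lmx1b was -7.36 kb in control with a window of 50 kb and -0.94 kb with the wider 75% of peaks.

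Cover near transcript starts was shared between the lists more than cover farther away. For the 9 genes with a listed start, window bases were divided into those within 5 kb of any start and the rest. Near the starts, peaks covered 93.4% of bases in control and 77.5% in Eed cKO, and 81.0% of the control cover was also covered in Eed cKO. Farther away 38.9% of it was. The near share exceeded the far share at 8 of 9 genes, and at Lmx1a both were 0%. Among all control-marked genes with control cover in both zones it did so at 446 of 1151. Over the 3524 control-marked genes with a listed start, the same shares were 44.2% near and 43.1% far, and among the 905 with at least 10 kb of control cover they were 53.9% and 46.8%. Of the latter, 676 had cover in both zones, and the near share was the higher at 333. Genes without Eed cKO cover have 0% in both zones and count here as not higher, as Lmx1a does. Of all control-marked genes 55.1% had an Eed cKO peak, and of those with 10 kb 80.2%. The counts therefore do not give how often the far share was the higher.

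Near the starts the share was 100% at Lhx1, Lhx3 and Lhx8, 98.8% at Lmx1b, 88.1% at Lhx2, 86.8% at Lhx9, 81.3% at Lhx6 and 76.4% at Lhx4. Farther away it was highest at Lmx1b (73.8%) and lowest at Lhx4 (12.3%) and Lhx9 (17.9%). Lhx4 and Lhx9, whose wide control peaks narrowed to a single Eed cKO peak over the listed start, were the lowest of these 8 in the far zone. The listed start of each lies inside its gene span. At Lhx4 the 5′ end of the span fell in the far zone, where it was covered in control alone. At Lhx9 that end, also in the far zone, was covered in both lists. The near zone was defined after peak maps of these genes had been seen.

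**Figure D4:**
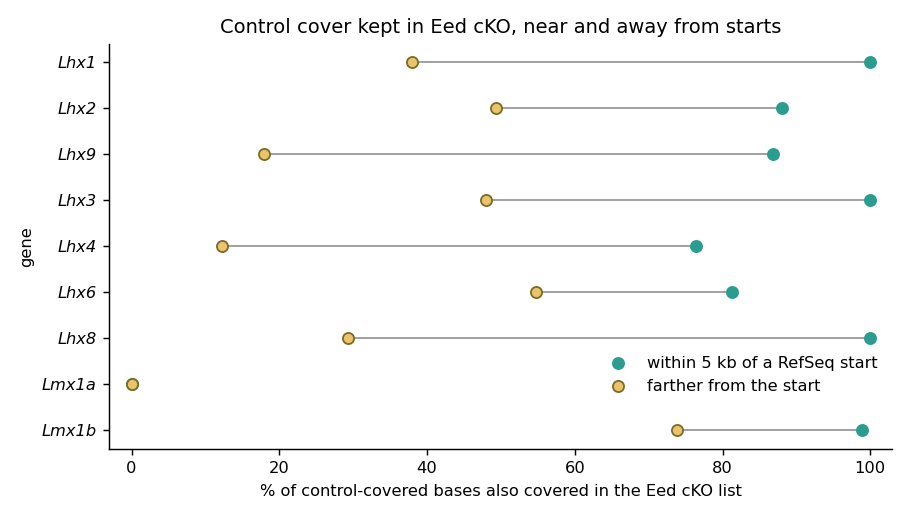
Percent of control-covered bases also covered in the Eed cKO list (x axis) for each of 9 genes (y axis), within 5 kb of a RefSeq start (green) and farther away (yellow). The green point lies to the right of the yellow one at 8 genes, and both are at 0% at Lmx1a.

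By distance from the first start, control cover of the 9 genes reached 100% of bases in the bins from 1 to 3 kb and from 8 to 9 kb downstream. It was still 44.4% in the bin from 10 to 9 kb upstream. Eed cKO cover was 0% from 20 kb, the limit of the bins, to 9 kb upstream of the first start. It peaked at 88.9% in the bin from 2 to 3 kb downstream. From 10 to 11 kb downstream it was 46.2%, against 87.9% in control. Bins need not lie inside the gene on the downstream side, since the spans of Lhx1 and Lhx3 are 7.56 and 8.04 kb. Upstream bins include gene bases where the listed start lies inside the span, as at Lhx4 and Lhx9. Over all control-marked genes the highest values were 36.1% in control and 19.1% in Eed cKO, both 1 to 2 kb downstream.

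**Figure D5:**
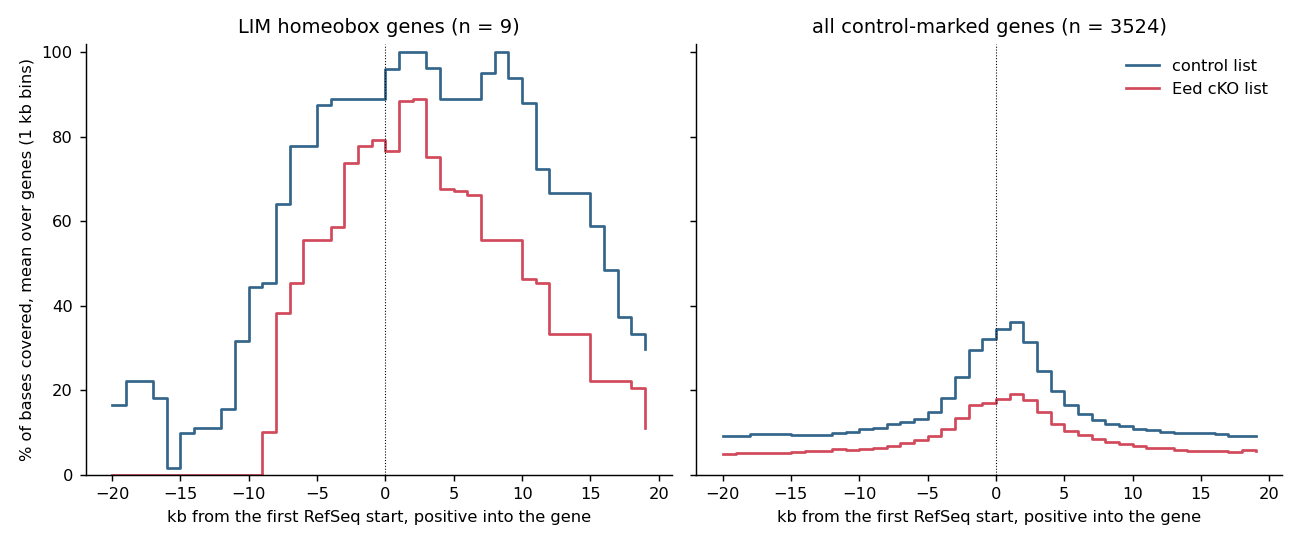
Mean percent of bases covered in 1 kb bins around the first RefSeq start (x axis, kb, positive downstream) for 9 LIM homeobox genes (left) and 3524 control-marked genes (right), in the control (blue) and Eed cKO (red) lists. At the LIM homeobox genes both lines are highest downstream of the start, at 100% in control and 88.9% in Eed cKO. The Eed cKO line is at 0% from 20 to 9 kb upstream.

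Of the 13 promoter windows, 12 were touched by a control peak and 11 by an Eed cKO peak, against 6.33% and 3.63% of 32851 RefSeq promoter windows. CpG counts ran from 4 at Lhx8 to 34 at the first start of Lhx2, with a median of 17. The median was 7 over all promoter windows, 16 over those touched by a control peak and 17 over those touched by both lists, so the LIM homeobox starts held about as many as other marked starts. At least 1 CpG was present in 94.6% of all windows. The windows with low counts at Lhx8 (4) and Lhx9 (6) were fully covered in both lists, and that of Lmx1a (12), without Eed cKO cover, had more than either. These counts cover only the 300 bases at each listed start, which at Lhx9 lies inside the gene span. Whether CpG content bears on Eed cKO cover was not tested.

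Peaks at these genes were shared with few neighbours. Apart from 2310009B15Rik and Morn5, no other protein-coding span was touched, while 10 lncRNA genes were, among them Lhx1os, AI606473 at Lhx8 and C130021I20Rik at Lmx1b. The windows of the 4 genes on chromosome 2 and the 3 on chromosome 1 did not share peaks. At the 20 kb limit, the outermost peaks inside were control peaks 15.8 kb from Lhx1 (3.63 kb wide) and 16.4 kb from Lhx2 (10.6 kb wide). Those just outside were control peaks 22.4 kb from Lmx1b (4.06 kb wide) and 22.5 kb from Lhx2 (3.17 kb wide).

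By closeness of the pair of cover values in the control and Eed cKO lists, the genes most like Lhx2 were Runx3 (51.6 and 40.1 kb), Chst11 (66.4 and 43.9 kb) and Tsc22d3 (63.4 and 26.9 kb), at distances of 8.54, 9.52 and 11.0 kb. This likeness rests on 2 values per gene. Lhx2 had both the most control cover and the most control cover without Eed cKO cover, so the rule for the other gene gave the same names.

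The remaining LIM homeobox genes are Isl1 and Isl2, which act in motor neurons, and Isl1 also in heart and islet cells. Both had a peak in the gene window in both lists. Isl2 had 15.3 kb of control cover and 11.0 kb in Eed cKO, with 71.6% of the former also covered in the latter. Isl1 had 32.9 and 3.1 kb, with 9.41%. The span of Isl1 was wholly covered in control and bare in Eed cKO, where the cover lay in the flank. Of the LIM-only genes, which compete for the same cofactors, Lmo2 had 9.24 and 4.53 kb, Lmo1 had 6.56 kb in Eed cKO alone, and Lmo3 and Lmo4 had no peak. Of the 6 cofactor and regulator genes, Ldb1, Ldb2, Ssbp2, Ssbp3 and Rlim had no peak in either list. Ssbp4 had control cover of 3.20 kb and Eed cKO cover of 6.37 kb at places that did not overlap. In all, 4 of these 12 genes had a control peak and 5 an Eed cKO peak, against 21.2% and 14.3% of all protein-coding genes.

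Among 27 genes for cytoskeletal proteins with LIM domains but no homeodomain, 11 had a control peak (40.7%), 8 an Eed cKO peak (29.6%) and 6 both. Over all protein-coding genes the shares were lower, at 21.2%, 14.3% and 11.7%. Median control cover of the 27 genes was 0 kb, as over all protein-coding genes, against 24.3 kb at the Lhx and Lmx genes. The highest of the 27 was 19.8 kb at Pxn, which encodes paxillin. Crip1 and Crip2 shared the same peaks (10.8 kb of control and 19.7 kb of Eed cKO cover). Pdlim4 had 14.1 kb in control and no Eed cKO peak.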

How the data were processed

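Peak positions were analysed, the only quantity in the 2 deposited lists. The authors deposited chromosome, start and end in mm10 per the file headers, with no score. The submitters' processing notes list Bowtie2 2.3.3.1, with SAMtools 1.9. The caller and cutoff behind the peaks, any role of the inputs, and how 2 libraries per genotype became 1 list, are not given in the sources used. Libraries of Ring1a/b 2KO cells and the inputs themselves were not analysed here.

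Starts were taken as counted from 0 and are printed from 1. Gene spans came from RefSeq for GRCm38.p6, starts and promoter sequences from its promoter table. Cover is the number of window bases under peaks, clipped to the window, whereas widths are whole. Gene windows overlap between neighbours in genome-wide sums. The 10 genes and all lists were chosen with earlier results of these data known. Named genes were the 10 genes, members of the LIM lists, neighbours under their peaks and the 3 genes nearest in cover to Lhx2. Examples from the LIM lists were chosen after their values were seen. Protein identity between paralogs was planned and was not run. No tests were made, and intervals were not given, since depth is unknown. Alternatives were other windows, wider peaks, a trimmed control list, a stricter overlap and merging. Interval functions were tested on simulated data. Python 3.11.15 was used with numpy 2.4.6, pandas 2.3.3 and matplotlib 3.10.9.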

Additional observations from a re-analysis of the deposited data

How the results depend on the processing

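The count of genes with a peak, 10 in control and 9 in Eed cKO, was the same under all 7 other settings (3 other windows, wider peaks, a control list as short as the Eed cKO list, a stricter overlap and merging), and Lmx1a had no Eed cKO cover in any. For Lmx1a no setting could have given another outcome, since the nearest Eed cKO peak was 3224 kb away. The share of control cover also covered in Eed cKO, 56.9%, ranged from 54.5% to 61.3%, the highest without Lmx1a. The median control width was 8.74 kb in place of 17.0 kb with a window of 50 kb, below the 9.73 kb of Eed cKO in that window, which takes in more of the narrower peaks around the genes. With the gene span alone, control cover was 163 kb and Eed cKO cover 101 kb, since the flanks are left out. Of the paralog differences, 5 turned and others moved by over 1.5 times without turning, as given beside each pair. With the gene span alone these were Lhx1 minus Lhx5 (-2.01 kb in control, -0.596 kb in Eed cKO) and Lhx3 minus Lhx4 in Eed cKO (-1.56 kb). The control difference Lmx1a minus Lmx1b was 0.125 kb with a window of 10 kb and 2.16 kb with the control list trimmed to its widest peaks. The cause was not tested. The near and far shares, for which all other settings were chosen after seeing the data, ranged from 67.5% to 90.4% and from 30.2% to 48.7%. No paired analysis was possible because each genotype had 1 peak list with no values per library.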

Other observations

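Between 20 and 50 kb from the genes lay 5 control peaks, at Lhx2, Lhx6, Lmx1a and Lmx1b, and 1 Eed cKO peak, at Lmx1b. The control peaks were 1.20 to 4.06 kb wide. The Eed cKO peak, 6.07 kb wide and 22.6 kb from Lmx1b, overlapped the 4.06 kb control peak there and was wider, as were the Eed cKO peaks at the start of Lmx1b.

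The bare stretch over the first Lhx2 start, with Eed cKO peaks close on both sides, was chosen after its values were seen. Of 2080 RefSeq promoter windows touched by a control peak, 1174 had no Eed cKO cover. Of these, 12 (1.02%), in 12 genes, had Eed cKO peaks within 2 kb on both sides, and the Lhx2 start was among them. The 12 windows had a median of 29.5 CpGs, against 15 for all 1174, which include them. Of the 12, 5 held at least 34 CpGs, the Lhx2 start with its 34 among these 5.

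Eed cKO edges within 200 bp of the outer edge of the control peak were found at 5 of 16 Eed cKO peaks of the LIM homeobox genes and at 37.0% of 1781 Eed cKO peaks genome-wide that met a control peak. Eed cKO peaks lay wholly inside control peaks in 9 of the 16 cases, against 32.1%. The 4 such peaks at Lhx2 lay in a single control peak, as did the 3 at Lhx6. None of the 16 reached past the control peaks on both sides, as 26.3% did genome-wide. The genome-wide shares were not matched for control peak width, whose median was 17.0 kb at these genes and 4.33 kb in the whole list. These counts carry no test.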
